A study of Rattus norvegicus with 20 samples.

Results

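The 100 genes described here were the most variable between individual rats among genes whose mean dorsal and ventral hippocampal levels lay within about 2-fold of each other. They were chosen from 32883 rows of a gene table, of which 8185 met limits on their mean levels. Normalized counts, that is reads per gene divided by a size factor of the sample, were averaged within each dataset. A row met the limits when its polyA mean and its RBD mean were at least 50, its mean over the 20 samples was below 5000, and its RBD to polyA ratio, with 5 added to both means, lay between 0.25 and 4. In addition, its ventral to dorsal ratio, with 1 added to both means, had to lie between 0.5 and 2 and on the same side of 1 in both datasets. For each polyA animal, log2(normalized count + 1) was averaged over the dorsal and the ventral sample, the rows were ranked by the SD of the 7 averages, and the first 100 were taken. The spread between polyA animals, the limited dorsoventral difference and the similar level in both library types were therefore fixed by the choice and are given as a description.

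The samples came from male Wistar rats, 3 months old, that were handled as controls and received no treatment. PolyA-enriched libraries were made from the dorsal and the ventral hippocampus of 7 animals after extraction with Qiazol. Ribosome-depleted (RBD) libraries were made from the same parts of 3 other animals after extraction with ExtractRNA and use of the MGIEasy rRNA Depletion kit. Each animal gave 1 dorsal and 1 ventral library, so the groups held 7 polyA dorsal, 7 polyA ventral, 3 RBD dorsal and 3 RBD ventral samples. The animals are called polyA animals 1 to 7 and RBD animals 1 to 3, after the numbers in the sample titles. The polyA libraries held 23825086 to 25262001 reads assigned to genes and the RBD libraries 14920611 to 18647986.

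The dorsal hippocampus is known mainly for spatial learning and the ventral hippocampus for emotional and stress-related behaviour, and many genes change their level along this axis. Wistar is an outbred stock, in which animals carry different alleles and each animal has its own history of stress, feeding and activity. In bulk tissue such as this, fewer cells of a type and less RNA per cell cannot be told apart. The rows of the table carried no gene identifier, so the genes are named by their row in the table, counted from the first row of values. Their functions, their sequences and the markers of hippocampal cell types were not analysed here for that reason. Neither could the animal be told apart from its dissection and RNA extraction, since each part of each animal was sequenced once.

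The SD of the 7 polyA animal averages ranged from 0.32 to 3.32 among the members, with a median of 0.39, beside a median of 0.077 over all rows that met the limits. At the edge of the choice, rows 5137 and 6315 had SDs of 0.325456 and 0.324798 and were taken, and rows 3107 and 977 had SDs of 0.323835 and 0.323292 and were not. The edge was thus a cut through a continuous ranking. The members' mean level over the 20 samples had a median of 190 normalized counts and ranged from 54.2 to 4377, beside a median of 644 for the rows that met the limits. The lower levels were over-represented: 61 members had a mean between 50 and 300, a class that held 28.0% of the rows, 32 lay between 300 and 1000 (36.7% of the rows), and 7 lay between 1000 and 5000 (35.4% of the rows). Counting error was small beside the members' spread. Their polyA SD was a median of 5.57 times the SD that counting of reads alone would give (range 2.62 to 60.2), beside 1.89 for the rows that met the limits.

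The most variable row, 30837, ranged from no read in polyA animal 6 to 1049 dorsal normalized counts in polyA animal 5. Its dorsal normalized counts in polyA animals 1 to 7 were 393, 200, 315, 344, 1049, 0 and 36.0. The ventral counts of the same animals were 300, 221, 285, 331, 807, 0 and 37.2. Animal 6 thus had no read in either part, animal 7 was low in both and animal 5 was high in both. Against a floor of 3 reads in each of the libraries of animal 6, the highest animal was at least 384-fold higher in the dorsal and at least 305-fold higher in the ventral hippocampus. In the RBD animals the dorsal counts were 337, 313 and 45.2 and the ventral counts 285, 215 and 35.1, so RBD animal 3 also lay apart from the other two in both parts.

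Row 27105, the second in rank, separated polyA animals 6 and 7 from the rest. Its dorsal counts were 419, 416, 265, 252, 553, 50.1 and 41.4, and its ventral counts 531, 484, 288, 300, 574, 66.1 and 53.6. The 2 low animals lay far below the others in both parts. Its 3 RBD animals were close together, with dorsal counts of 429, 472 and 492 and ventral counts of 561, 599 and 533. Row 25117, the third, had 1 low polyA animal and 1 low RBD animal. Its polyA dorsal counts were 208, 92.4, 166, 106, 183, 95.6 and 14.4, and its ventral counts 211, 104, 181, 99.96, 192, 108 and 16.4, lowest in animal 7. In RBD animal 2 only 2 dorsal reads and 1 ventral read were counted, whereas the other RBD animals had dorsal counts of 67.0 and 72.0 and ventral counts of 107 and 125. No fold is given for these values, since so few reads set it.

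**Figure D1:**
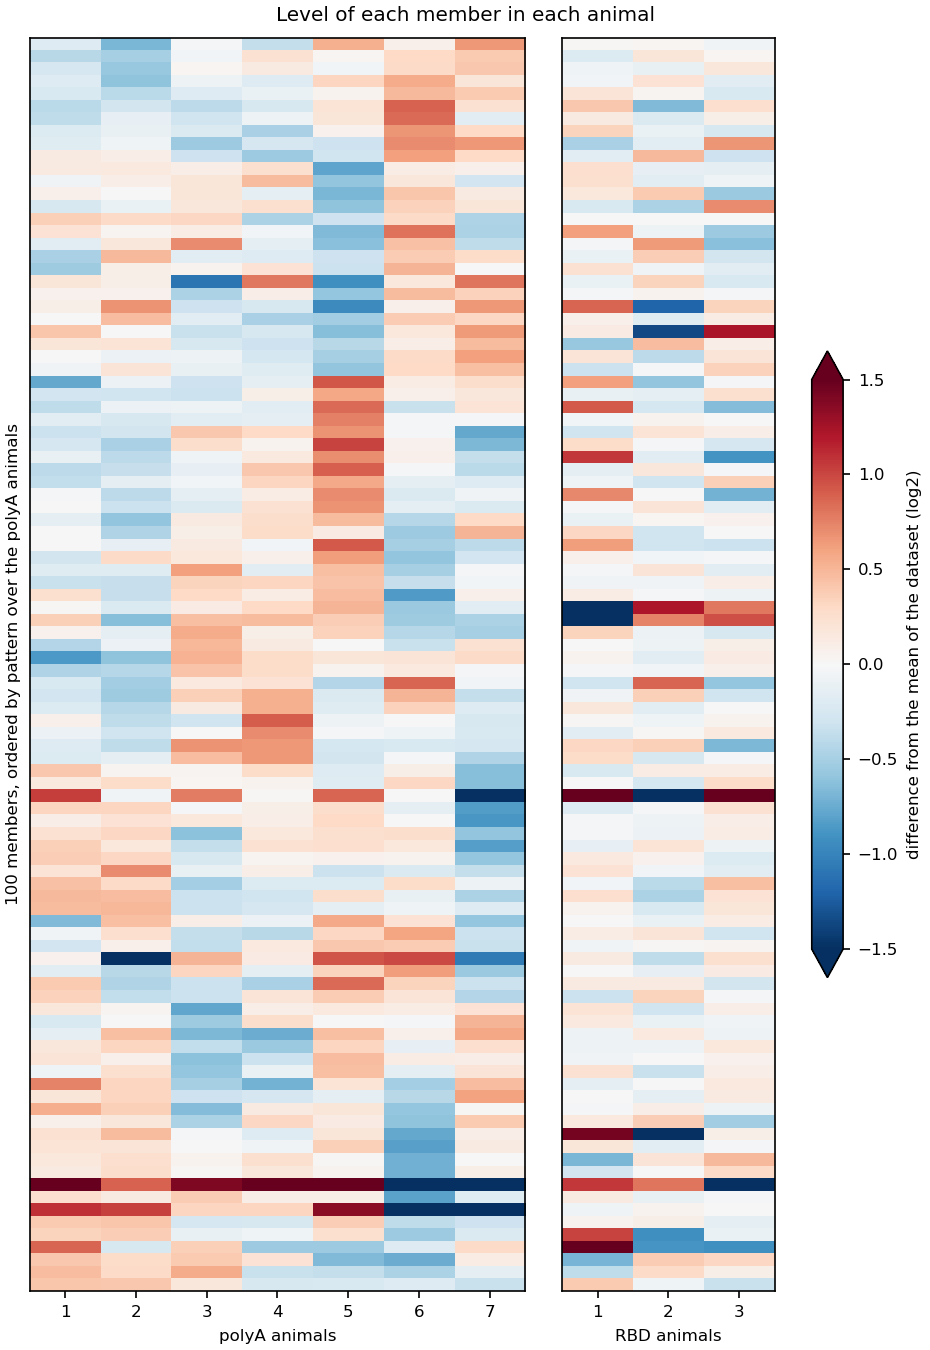
Each line of the heat map is 1 of the 100 members, ordered by its pattern over the polyA animals, and each column is 1 animal, with the dorsal and ventral samples averaged. Colour gives the difference from the mean of the dataset on the log2 scale; the members did not share 1 order of animals, and single animals stood out in different blocks of members.

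The other members of the first 10 had smaller spreads of several shapes. Row 30204 was low in polyA animals 3 and 5, with dorsal counts of 136 and 164 against 277 to 484 in the rest, and ventral counts of 113 and 121 against 278 to 467. Row 30843 was graded, from 171 dorsal and 164 ventral counts in animal 5 to 540 dorsal counts in animal 2 and 531 ventral counts in animal 7. Row 18252 ranged from 166 to 504 dorsal and from 154 to 382 ventral counts, with animals 3, 4 and 6 the lowest in both parts. Row 7286 was one of the more abundant members and ran from 1038 to 2725 dorsal and from 1149 to 2752 ventral counts, with animals 3 and 4 the lowest and animal 7 the highest in both parts. Row 30841 was highest in animal 5, at 142 dorsal counts against 38.7 to 69.6 and at 116 ventral counts against 39.8 to 82.9. Row 22035 was also highest in animal 5 in both parts, at 138 dorsal and 97.4 ventral counts. Row 31352 was lowest in animals 2 and 7 and highest in animals 5 and 6 in both parts. Its dorsal counts were lowest in animal 2 and reached 205 in animal 5, and its ventral counts ran from 39.8 in animal 7 to 131 in animal 6. The spread differed between the parts, with an SD of 1.37 in the dorsal and 0.63 in the ventral samples on the log2 scale.

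The ranking averaged both parts, so that the 2 parts of an animal are 2 separately dissected and sequenced samples of the same rat. Across the 7 polyA animals the dorsal and ventral values of a member had a median correlation of 0.89 (range 0.26 to 0.999), beside a median of 0.34 for the rows that met the limits. A correlation of at least 0.9 was found in 48 members and in 3.20% of the rows. These correlations rest on 7 animals each and are raised by the ranking on the mean of both parts. A ranking on the dorsal samples alone did not use the spread between the ventral samples, although the limits on means used their level. The 100 rows it gave had a median ventral SD of 0.33, beside 0.094 over all rows that met the limits. A ranking on the ventral samples alone shared 48 of its 100 rows with the dorsal one.

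In 34 members the polyA animals fell into 2 sets, in the sense that the largest gap between neighbouring animal averages took up at least 50% of the whole range. The same was found in 17.5% of the rows that met the limits. In 31 of the 34 members the dorsal and the ventral samples split the animals the same way. The gap was taken from the average of both parts, so the choice favoured such agreement. It was not counted in the other rows. A single animal lay apart in 19 members, low in 10 and high in 9, and 2 or 3 animals lay apart in the other 15. The fold across the gap had a median of 1.66. Animal 6 was the single low animal in rows 30837, 17034, 11988, 5180 and 15174, and animal 7 in rows 25117, 6550 and 31401. Animal 5 was the single high animal in rows 10592, 8382, 7864, 6850 and 30960.

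Rows 23330, 154, 2620 and 23369 were chosen after their values were seen, as examples in which more than 1 polyA animal lay apart and the RBD animals also differed. Row 23330 had dorsal counts of 515, 502, 537 and 474 in polyA animals 1, 3, 4 and 5 and of 256, 264 and 280 in animals 2, 6 and 7. The ventral samples split in the same way, at 417 to 488 against 212 to 243. Its RBD animal 1 had 32.8 dorsal and 47.7 ventral counts, and the other RBD animals had at least 262 dorsal and 187 ventral counts. Row 2620 was high in polyA animals 6 and 7, at 842 and 829 dorsal counts against 381 to 489, and in RBD animal 3, at 921 dorsal counts against 398 and 509. Row 23369 was low in polyA animals 5 and 6, at 162 and 157 dorsal counts against 283 to 374, and in RBD animal 1, at 97.0 dorsal counts against 240 and 239. Row 154 was high in polyA animals 3 and 4, at 179 and 192 dorsal counts against 89.9 to 101.3. In RBD animals 1, 2 and 3 it had dorsal counts of 251, 223 and 129 and ventral counts of 168, 204 and 82.8, lowest in animal 3.

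Row 30355, one of the 2 members with the highest mean, was low in polyA animals 3 and 7. Its dorsal counts there were 2570 and 2604 against 4162 to 5056 in the remaining polyA animals. Its ventral counts were 1877 and 1898 against 3378 to 3606. Row 8499 was low in polyA animals 4, 5 and 7, at 429 to 511 dorsal counts against 757 to 795, and at 318 to 338 ventral counts against 501 to 576. In the RBD animals it was the most even member, at 558, 577 and 575 dorsal and 402, 394 and 399 ventral counts. A split between polyA animals was therefore seen beside both a wide and a narrow spread in RBD.

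**Figure D2:**
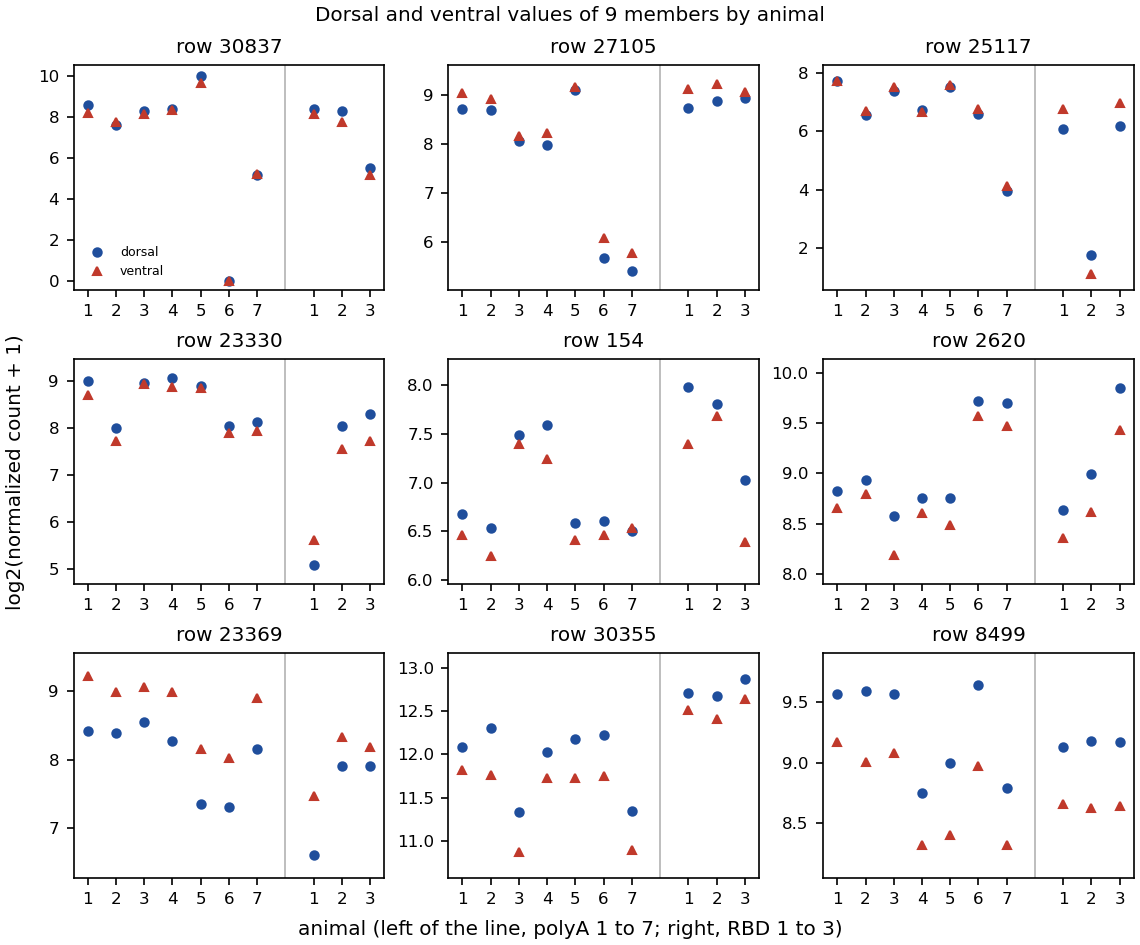
Each panel plots 1 member, with the animal on the horizontal axis (polyA 1 to 7 left of the line, RBD 1 to 3 right of it) and log2(normalized count + 1) on the vertical axis, the dorsal and the ventral sample as separate points. In rows 23330, 2620 and 30355 the same polyA animals were low or high in both parts, and row 8499 shows nearly level RBD animals.

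Single polyA animals were also extreme in the members that the fixed rule names for each animal. Row 23651, the member with the lowest mean, was highest in animal 1 on average, with 87.2 dorsal and 91.0 ventral counts, although animal 7 had 88.1 dorsal counts. Row 9164 was highest in animal 2, at 1064 dorsal counts against 465 to 786, and at 820 ventral counts against 405 to 567. Row 25738 was lowest in animal 3, at 141 dorsal counts against 226 to 249 and at 153.6 ventral counts against 292 to 355. Row 9800 was highest in animal 4, at 181 dorsal counts against 76.5 to 100.5 and at 255 ventral counts against 148 to 190. Row 15174 was lowest in animal 6, at 93.7 dorsal counts against 139 to 175 and at 88.2 ventral counts against 153.6 to 188. These 4 rows, 9164, 25738, 9800 and 15174, had the same animal at the end of the range in both parts, outside the range of the other 6.

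In 14 members the SD of the animal averages was smaller than the SD of the ventral minus dorsal difference. That is, the difference between the 2 parts varied more between animals than their average did. The same was true of 78.1% of the rows that met the limits, a contrast that the ranking by the SD of the animal averages fixed. These SDs are not on a common scale, since for unrelated parts of equal spread the difference varies more than the average. The count therefore does not show that the parts varied more than the animals. Row 8382 had 6582 counts in the ventral sample of animal 5 against 1507 to 2633 in the other ventral samples, whereas its dorsal count in animal 5 was 3397 and within the range of 2253 to 3488. Row 7864 had 127 counts in the same ventral sample against 33.7 to 59.6, and row 6850 had 257 against 59.0 to 96.4. For both rows the dorsal sample of animal 5 lay inside the dorsal range of the other animals. All 3 rows were highest in RBD animal 1, as were 35 of all 100 members and 30.1% of the rows that met the limits. In RBD animal 1, row 8382 had 5698 dorsal and 6111 ventral counts against 1627 to 2661 in the other RBD samples. Rows 18775, 31401 and 6064 had a low value in 1 part. Row 18775 had 134 dorsal counts in animal 5 against 278 to 441, row 31401 had 27.7 ventral counts in animal 7 against 63.5 to 96.5, and row 6064 had 110 dorsal counts in animal 2 against 170 to 556. The same animal was also the lowest in the other part of row 18775, at 159 ventral counts against 179 to 258, and of row 31401, at 91.7 dorsal counts against 115 to 163, but by less. Row 6064 had ventral counts of 268 to 360 in all 7 animals, a far narrower range than in the dorsal samples.

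**Figure D3:**
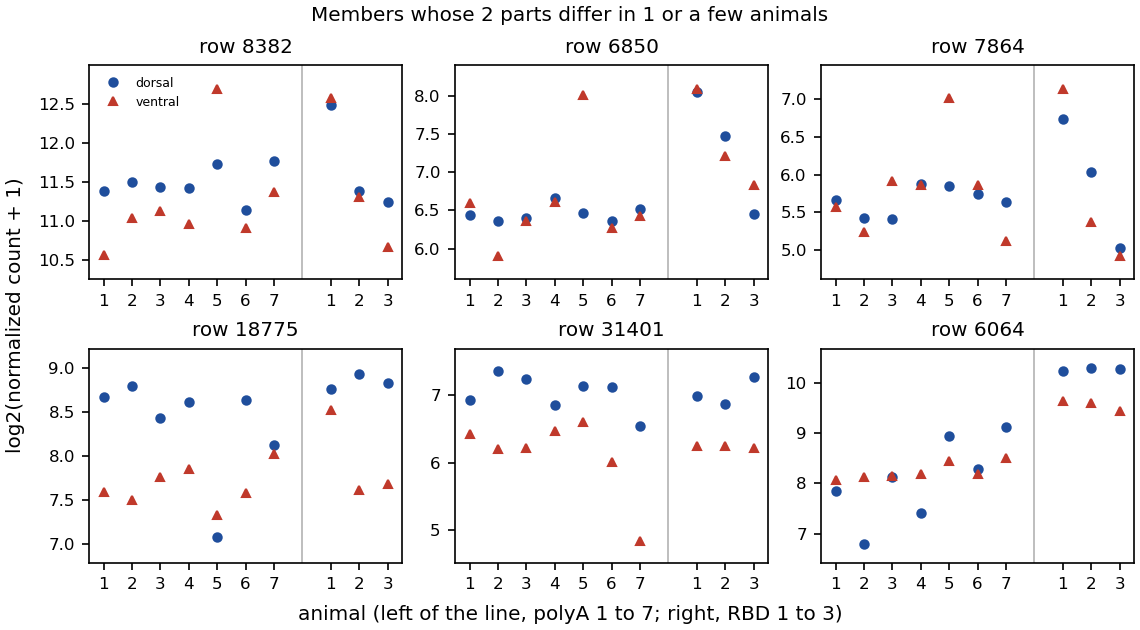
Each panel plots 1 member in the dorsal and the ventral sample of each animal, with polyA animals 1 to 7 left of the line and RBD animals 1 to 3 right of it, on the log2(normalized count + 1) scale. In rows 8382, 6850 and 7864 the ventral sample of polyA animal 5 stood above the other ventral polyA samples, at 6582, 257 and 127 counts.

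Whether these genes also varied between animals that the ranking did not use was asked of the 3 RBD animals. The SD of the RBD animal averages had a median of 0.25 over the members and of 0.085 over the rows that met the limits. It exceeded the rows' median in 89 members, and 53 members were among the 10% of rows with the largest RBD SD. Of the 100 rows with the largest RBD SD, 26 were members. The median RBD SD was 0.27 for members with a mean of 50 to 300, beside 0.13 for all rows of that level. It was 0.23 beside 0.081 between 300 and 1000, and 0.17 beside 0.065 between 1000 and 5000, so the difference was seen at each level. The highest RBD animal was at least 2-fold above the lowest in 23 members and in 0.819% of the rows that met the limits. Of the 11 rows in which it was at least 4-fold above, 8 were members. These folds were taken on log2(normalized count + 1), and the 8 include row 25117, whose low value rests on 2 reads and 1 read. Members at the other end included rows 8499 and 10587, with the smallest RBD spread; row 10587 had RBD dorsal counts of 672, 703 and 680 and ventral counts of 530, 558 and 518.

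**Figure D4:**
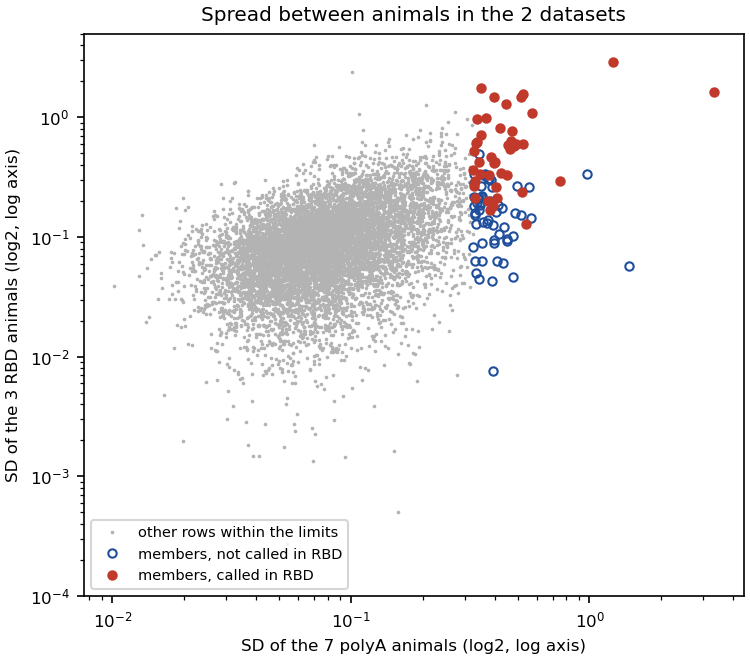
Each point is a row that met the limits, placed by the SD of its 7 polyA animal averages and the SD of its 3 RBD animal averages on log axes; filled points are members called different between RBD animals and open points are members not called. All members lie at or beyond a polyA SD of 0.32 by the choice, and their RBD SDs spread from 0.0076 to 2.93.

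In a limma fit over all genes tested in RBD, with the animal as the term tested and the hippocampal part as a covariate, 44 of the 100 members differed between the 3 animals at an adjusted p below 0.1. The same held for 11.0% of all 14699 genes tested and for 10.1% of the rows that met the limits. An unadjusted p below 0.05 was found in 56 members and in 3219 of the 14699 genes. The members called had RBD SDs of 0.13 to 2.93, with a median of 0.56, and the 56 not called had SDs of 0.0076 to 0.49, with a median of 0.16. All 23 members with at least a 2-fold difference were among those called. Beside rows of like level the share called was also higher. It was 20 of 61 members at means of 50 to 300, beside 8.17% of all rows of that level, 20 of 32 beside 8.72% between 300 and 1000, and 4 of 7 beside 13.0% between 1000 and 5000. With DESeq2 on the recovered reads in place of limma, 28 members were called, beside 4.56% of the genes. On simulated data the share of false calls was on average somewhat above the set level with limma and below it with DESeq2. The changed genes there differed 2-fold in 1 animal, so smaller differences were not covered. When RBD animal 1, 2 or 3 was left out, 30, 31 and 44 members were called, beside 6.22%, 7.33% and 17.7% of the genes.

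The share called fell with the rank of the polyA spread. It was 64.0% in ranks 1 to 25, 44.0% in ranks 26 to 50, 32.0% in ranks 51 to 75 and 36.0% in ranks 76 to 100. Just outside the members 18 of the next 100 rows were called, in ranks 201 to 500 the share was 21.7%, and in ranks 4001 to 8185 it was 5.93%. The order was therefore not strictly falling between neighbouring bins, and each bin of members held 25 rows. Of the 34 members with such a gap 17 were called, and of the other 66 members 27 were called; the difference between these shares was not tested.

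**Figure D5:**
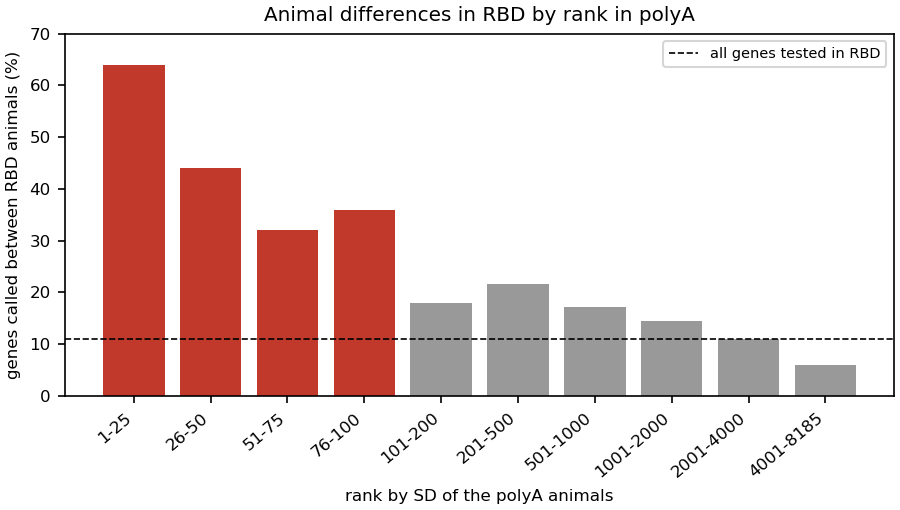
Bars give the percentage of genes called different between the 3 RBD animals at an adjusted p below 0.1 (limma), in bins of rank by the SD of the polyA animals, with members in red and other rows in grey, and the dashed line gives 11.0% for all genes tested. The first bin reached 64.0% and the last 5.93%.

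The 6 members with the smallest adjusted p between RBD animals were rows 30837, 2320, 30843, 25117, 31018 and 8382. Row 30837 had an adjusted p of 2.29e-06 with limma, with RBD animal 3 the low one in both parts. Row 2320 (limma, adjusted p = 1.24e-05) had dorsal counts of 165, 1207 and 709 and ventral counts of 73.5, 884 and 836, lowest in RBD animal 1. Among the polyA animals it ranged from 676 to 1519 dorsal and from 806 to 1565 ventral counts, which was above both values of RBD animal 1. Row 30843 (limma, adjusted p = 1.34e-05) had dorsal counts of 858, 254 and 714 and ventral counts of 793, 149 and 446, lowest in RBD animal 2.

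Row 25117 had a limma adjusted p of 2.60e-05 and its low animal was RBD animal 2. Row 31018 (limma, adjusted p = 2.62e-05) had dorsal counts of 552, 192 and 1607 and ventral counts of 422, 156 and 665. RBD animal 2 was the lowest and RBD animal 3 the highest in both parts. Row 8382 had the same adjusted p of 2.62e-05 in the limma fit and was highest in RBD animal 1. Of these rows, 25117 was no longer called without RBD animal 2 (limma, adjusted p = 0.86) and 30837 no longer without RBD animal 3 (limma, adjusted p = 0.19). In each case the animal left out was the one with the low values.

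Of the 10 members with the largest polyA spread, rows 27105, 31352, 18252 and 30841 were not called between RBD animals, with limma adjusted p values of 0.75, 0.17, 0.72 and 0.36. Row 18252 had RBD dorsal counts of 81.3, 107 and 138 and ventral counts of 100.6, 92.2 and 88.4, in different orders in the 2 parts. Row 30204 was called at an adjusted p of 0.0156 (limma), with RBD animal 2 highest at 501 dorsal and 463 ventral counts against 309 to 360. Row 22035 was called at 0.0370 and row 7286 at 0.0661, both adjusted p values from limma. Row 7286 varied little in RBD, at 2344, 2771 and 2413 dorsal and 2542, 2910.5 and 2452 ventral counts. Row 23651 (limma, adjusted p = 0.000315) had 167 dorsal and 108 ventral counts in RBD animal 1 and 16.1 to 25.2 in the other RBD animals. Row 7142, with the other of the 2 highest means, was called at a limma adjusted p of 0.00586, and its polyA counts ran from 2729 to 7155 dorsal and from 2660 to 4148 ventral.

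The members did not rise and fall as 1 set. Over the 4950 pairs of members the correlation across the 7 polyA animal averages had a median of 0.013, with 31 pairs at 0.9 or above and 33 at -0.9 or below. Sorting by these correlations (average linkage, separated at a distance of 0.3) gave 35 sets of members. Of these, 14 held at least 3 members and together 65, and 7 members stood alone. The sets describe these 7 animals and were given no test.

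The largest set held 8 members, rows 25117, 30354, 30355, 6550, 31401, 31327, 7142 and 16722, and was low in polyA animal 7, by a mean of 0.95 below the members' own means on the log2 scale. In RBD, 6 of the 8 were highest in animal 3, beside 35 of all 100 members and 31.8% of the rows that met the limits. Of these 6, rows 25117, 6550 and 7142 were called between RBD animals, in a test that did not ask which animal was highest. Rows 30355, 31401 and 31327 were not called (limma, adjusted p = 0.11, 0.82 and 0.70). Row 25117 had its low values in RBD animal 2 and was not called without that animal (limma, adjusted p = 0.86). The second set held 7 members, rows 30841, 10439, 22418, 7864, 6850, 18942 and 20362, and was high in polyA animal 5, by a mean of 0.75. In RBD its members were split, with 3 highest in animal 1, 3 in animal 2 and 1 in animal 3. The third set held 6 members, rows 30837, 28576, 17034, 11988, 5180 and 15174, and was low in polyA animal 6, where its mean deviation was -1.78 with row 30837, which had no read there, and -0.76 over the other 5 members. Row 11988 was the most abundant of them, at 1046 dorsal and 1045 ventral counts in animal 6 against 1740 to 2538 and 1753 to 2170 in the other animals. Row 5180 had 131 dorsal and 125 ventral counts in animal 6 against 184 to 257 and 217 to 276.

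No polyA animal was extreme in most members. Animal 5 was the highest animal in 27 members, beside 16.5% of the rows that met the limits, and the other animals were highest in 8 to 17. The lowest animal was animal 2 in 19 members, animals 6 and 7 in 18 each, and the others in 9 to 13. In RBD, animals 1, 2 and 3 were highest in 35, 30 and 35 members and lowest in 25, 39 and 36.

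The dorsoventral difference of the members was limited by the choice, in size and in its shared direction, so what follows on it is a description and supports nothing. The dorsal mean was the higher one in 61 members and the ventral mean in 39. The absolute log2 fold change between the parts had a median of 0.23 in polyA, beside 0.16 over all genes tested, and of 0.33 in RBD, beside 0.18. The SE of this fold change in polyA had a median of 0.19 in the members and of 0.062 over all genes. In all 100 members the dorsal and the ventral polyA samples overlapped, and the range of the 7 animal averages exceeded the dorsoventral fold change. Without overlap were 27.3% of the rows that met the limits.

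The choice also shaped the counts of members called between the parts. In the fit without an animal term, 29 members passed an adjusted p of 0.1 between the parts in polyA, of which 15 had the higher ventral and 14 the higher dorsal level, beside 52.9% of all genes tested (25.3% ventral and 27.5% dorsal). In RBD 27 passed, beside 28.4% of the genes. Of these, 7 had the higher ventral and 20 the higher dorsal level, beside 2117 and 2061 of the 14699 genes. With the animal as a replicate block the counts were 67 in polyA, beside 59.8% of all genes, and 52 in RBD, beside 40.1%. Of the rows that met the limits, the block fit called 70.5% in polyA and 47.8% in RBD. The fit without the block called 63.6% and 34.2% of them. Members were ranked by the variation between polyA animals, which the block removes, so a larger rise among them was built into the choice. In 26 members all 10 animals had the same direction, as had 41.3% of the rows that met the limits.

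The largest dorsal differences in polyA were those of rows 2064 and 31401. Row 2064 had a log2 fold change of -0.94 (SE 0.19) in polyA and of -0.51 (SE 0.30) in RBD. The RBD value was -0.26 without RBD animal 1 and -0.87 without RBD animal 2. Its polyA dorsal counts ran from 469 to 1192 and its ventral counts from 305 to 506, so that the lowest dorsal sample lay within the ventral range. Row 31401 had -0.91 (SE 0.21) in polyA and -0.81 (SE 0.16) in RBD. The largest ventral differences were those of row 9800, with 0.89 (SE 0.16) in polyA and 0.11 (SE 0.18) in RBD, and of row 13044, with 0.80 (SE 0.17) and 0.47 (SE 0.25). Row 13044 had 58.8 to 118 dorsal and 112 to 194 ventral counts in polyA, and in each of the 7 animals the ventral count was the higher one. In row 9800 the ventral count was also higher in every polyA animal, whereas RBD animal 3 had 218 dorsal and 171 ventral counts. The RBD log2 fold change of row 9800 was -0.07 without RBD animal 1, 0.06 without animal 2 and 0.34 without animal 3. That of row 13044 was 0.69 without RBD animal 1, 0.31 without animal 2 and 0.42 without animal 3.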

How the data were processed

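Paired dorsal and ventral hippocampal samples of 7 polyA and 3 RBD animals were analysed from 1 deposited gene table. Per the labels the authors aligned reads to Rnor_6.0 with STAR 2.7.9a, counted them per gene with featureCounts 2.0.1 and used DESeq2 1.29. The deposited signal values are normalized counts, that is counts divided by a DESeq2 size factor over all 20 samples. All values were whole multiples of a per-sample step (tolerance 1e-06), so whole reads were recovered; they served the totals, the filter on low counts and the count tests.

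The members and lists were chosen with earlier results of these data known. Differences between RBD animals were tested with limma 3.58.1 in R 4.3.3 on log2(normalized count + 1), as a moderated F test with a trend over genes kept by filterByExpr (minimum count 10), with Benjamini-Hochberg adjustment over all genes tested. Dorsoventral differences were fitted in the same way in each dataset. The p values of the animal term set the animals against the scatter of their dorsal and ventral samples, as no part of an animal was sampled again. The main dorsoventral fits held no animal term, so they set the parts against the scatter between samples and did not use the pairing. Alternatives were edgeR 4.0.16 and DESeq2 1.42.0 on recovered reads, other pseudocounts and filters, scaling within a dataset, other rankings, the animal as a block, and leaving out each animal. The fits were tested on simulated data, over repeated draws. For the animal term, the changed genes were drawn from those with a mean of at least 50 reads. They differed 2-fold in 1 animal, and no other gene differed between animals. There limma and edgeR recovered nearly all changed genes, but their share of false calls was on average somewhat above the set level and varied between draws. DESeq2 stayed below that level on average and recovered fewer. Smaller differences were not simulated, and in the data only 23 members differed at least 2-fold between RBD animals. The sample titles give the same number to the dorsal and ventral samples taken as 1 rat. In polyA the column headers of a pair also share an animal number. In RBD the headers of a pair differ, so the pairing rests on the titles. Deviations from the group means correlated within all pairs, at 0.25 to 0.60 in polyA and 0.40 to 0.55 in RBD.

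Rows were named by rule: the 10 largest polyA SDs; the ranks at the edge; the 6 smallest adjusted p between RBD animals; the 2 largest dorsoventral changes each way in polyA; the 2 highest and 2 lowest means; for each polyA animal the member with the largest gap to that animal; and the 2 largest and 2 smallest RBD SDs. Other rows were named after their values were seen. As rows carry no identifiers, reference sequences were not used here.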

Additional observations from a re-analysis of the deposited data

Results flagged for a closer look

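Of 58 groups of 7 polyA samples examined, for the 29 named members in each part, 11 held 1 sample far from the other 6 by Dixon's test. Chance gives about 1 in 20 groups, but these rows were chosen on the same values, 10 of them for the largest spread between polyA animals and 7 for the largest gap to 1 animal, so the number of such groups shows nothing beyond that choice. The 11 fell in 8 members, 3 of which had them in both parts. PolyA animal 5 was the high sample for row 30837, at 1049 dorsal counts (others 0 to 393) and 807 ventral counts (others 0 to 331). It was also high for row 8382 at 6582 ventral counts (others 1507 to 2633), for row 7864 at 127 ventral counts (others 33.7 to 59.6) and for row 30841 at 142 dorsal counts (others 38.7 to 69.6). Animal 4 was high for row 9800, at 181 dorsal counts (others 76.5 to 100.5) and 255 ventral counts (others 148 to 190). Animal 3 was low for row 25738, at 141 dorsal counts (others 226 to 249) and 153.6 ventral counts (others 292 to 355). Animal 2 was high for row 9164 at 820 ventral counts (others 405 to 567), and animal 6 was low for row 15174 at 88.2 ventral counts (others 153.6 to 188).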

How the results depend on the processing

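The 44 members called between RBD animals became 28 with DESeq2, and the 1610 genes called in all became 670 with DESeq2 and 1033 at an adjusted p below 0.05. Leaving out each RBD animal gave 30 to 44 members and 914 to 2606 genes; the count over all genes was highest without animal 3. The median RBD SD of the members, 0.25, was 0.239 with a pseudocount of 5, 0.292 in the dorsal and 0.262 in the ventral samples, and 0.196 to 0.204 when 1 animal was left out. Over the rows that met the limits the median was 0.085. It was 0.084 with a pseudocount of 5, 0.109 in the dorsal and 0.099 in the ventral samples, and 0.060 to 0.076 when 1 animal was left out. In the paired fit with the animal as a replicate block, 67 members passed between the parts in polyA and 52 in RBD. The shares of the rows that met the limits were 70.5% and 47.8%. In the fit without the block, with 29 and 27 members, leaving out 1 animal gave 25 to 30 in polyA and 12 to 22 in RBD, with the fewest in RBD without animal 3.

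The membership itself depended on the ranking. Ranking by the median absolute deviation kept 52 of the 100 members, and dropping the dorsoventral limits kept 44. Leaving out each polyA animal kept 82 to 93, with the fewest without animal 5, and 42 members were kept whichever animal was left out. The RBD dorsoventral change of row 9800 reversed to -0.0743 without RBD animal 1 and ranged up to 0.34 when another was left out. The cause of these changes was not tested. Other settings moved no count by more than 1.5 times.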
